A study of Danio rerio with 8 samples.

Results

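The chromatin regulators described here are the genes on the array whose symbol places them in a named family of chromatin proteins. They are the histone deacetylases (hdac), the SWI/SNF subunits and their relatives (smarc), the ARID genes (arid) and the DNA methyltransferases (dnmt). The Polycomb proteins (ezh, eed, suz12) are included, with the chromobox proteins (cbx), of which some are Polycomb and some heterochromatin proteins. So are the lysine and arginine methyltransferases (kmt, setd, prmt), the lysine demethylases (kdm) and the CHD remodellers. The high mobility group proteins (hmga, hmgb, hmgn), the Sin3 and ING proteins, the rbbp proteins and the numbered bromodomain genes complete the set. Members were chosen by the start of the symbol in the platform annotation, a rule that uses no measured difference. Earlier results of these data were known when the rule was set. Each gene was represented by the probe set with the highest mean log2 signal. The rule found 109 genes with 154 probe sets, among 8793 genes with a single symbol and 15502 probe sets in all. A symbol is not a proof of function, and some members, such as the rbbp genes, share a name and no single role.

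DNA in the nucleus is wound around histones, and the proteins of these families decide how tightly it is packed. Writers add methyl groups to histones or DNA, erasers remove methyl or acetyl groups, readers bind the modified histones, and remodellers use ATP to slide or evict nucleosomes. High mobility group proteins bend DNA or bind nucleosomes without any enzymatic activity, and many of these proteins are known to be abundant in dividing and undifferentiated embryonic cells and to be needed for blood formation in vertebrates.

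The 8 arrays came from zebrafish embryos of the AB background that carried a cd41-GFP transgene and were 35 hours old, counted from fertilization. In the transgene the regulatory sequence of cd41 (itga2b, an integrin gene of thrombocytes and early blood progenitors) drives green fluorescent protein. Live cells were sorted into a GFP-positive fraction (written GFP+/+ in the protocol, 4 arrays) and a GFP-negative fraction (GFP-/-, 4 arrays), which holds all other cells of the same transgenic embryos. The fractions were paired by the submitters, each was passed through the sorter again, and the RNA was amplified linearly in 2 rounds before hybridisation. No label states that the pairs were separate clutches of embryos, and the p-values therefore cover the spread among these arrays, part of which may be technical.

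The array libraries differed in ways that touch the results. GFP-positive replicate 1 stood apart from the other GFP-positive arrays, with a mean correlation of 0.73 over tested probe sets against 0.83 to 0.87 for the others. GFP-positive replicate 3 lay nearest the GFP-negative arrays, at a mean correlation with them of 0.80 against 0.53 to 0.64. The signal at the 3' end of the GAPDH control was 31.3 to 100 times that at its 5' end on GFP-positive arrays, and 18.2 to 75.4 times on GFP-negative arrays, with the GFP-positive value above its partner's in 4 of 4 pairs. A probe set is called dim on an array where its signal is below the 40th percentile of that array, and it was tested if it was above that limit on at least 4 of 8 arrays. The probe set of itga2b was dim on all 8 arrays, so the gene of the transgene does not check the fraction labels. Among cell type markers, 14 of 14 tested myeloid genes rose in the GFP-positive fraction (summed signal 256989 to 449931 against 21239 to 54424). In contrast, 17 of 17 tested neural genes and 13 of 13 tested muscle genes fell. So did 7 of 11 erythroid, 3 of 4 stem and progenitor and 2 of 4 endothelial genes. Of 2 tested thrombocyte genes 1 rose and 1, thbs1b, fell. Among these markers alox5ap and mmp9 were dim on all GFP-negative arrays. The markers neurog1, nova2, mylz3, pvalb1 and thbs1b were dim on all GFP-positive arrays. These dim markers passed the filter only through the fraction where they are high, so their place in the counts supports nothing further. Of 22 tested proliferation genes 8 fell and none rose, with a median log2 difference of -1.12. Their summed signal was 61114 to 154400 on GFP-positive against 162886 to 244524 on GFP-negative arrays. Beside these marker counts, 18.4% of all tested genes of the array fell and 12.8% rose, with a median of -0.22.

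Chromatin regulators were mostly lower in the GFP-positive fraction. Of the 109 genes, 97 passed the filter on dim probe sets and were tested, 29 fell, 3 rose and 65 did not pass the test (limma with the pair as a block, adjusted p under 0.05). The members that fell were 29.9% of those tested, where 18.4% of all tested genes of the array fell, and those that rose were 3.09%, where 12.8% of all tested genes rose. In these sorted bulk samples, fewer cells that carry a transcript and less of it per cell cannot be told apart. The median log2 difference, GFP-positive minus GFP-negative, was -0.66 over tested members and -0.18 over all tested probe sets. A difference below 0 was found for 75 tested members and a difference above 0 for 22. The median over all tested genes was -0.22, so most genes of the array were below 0 as well.

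**Figure D1:**
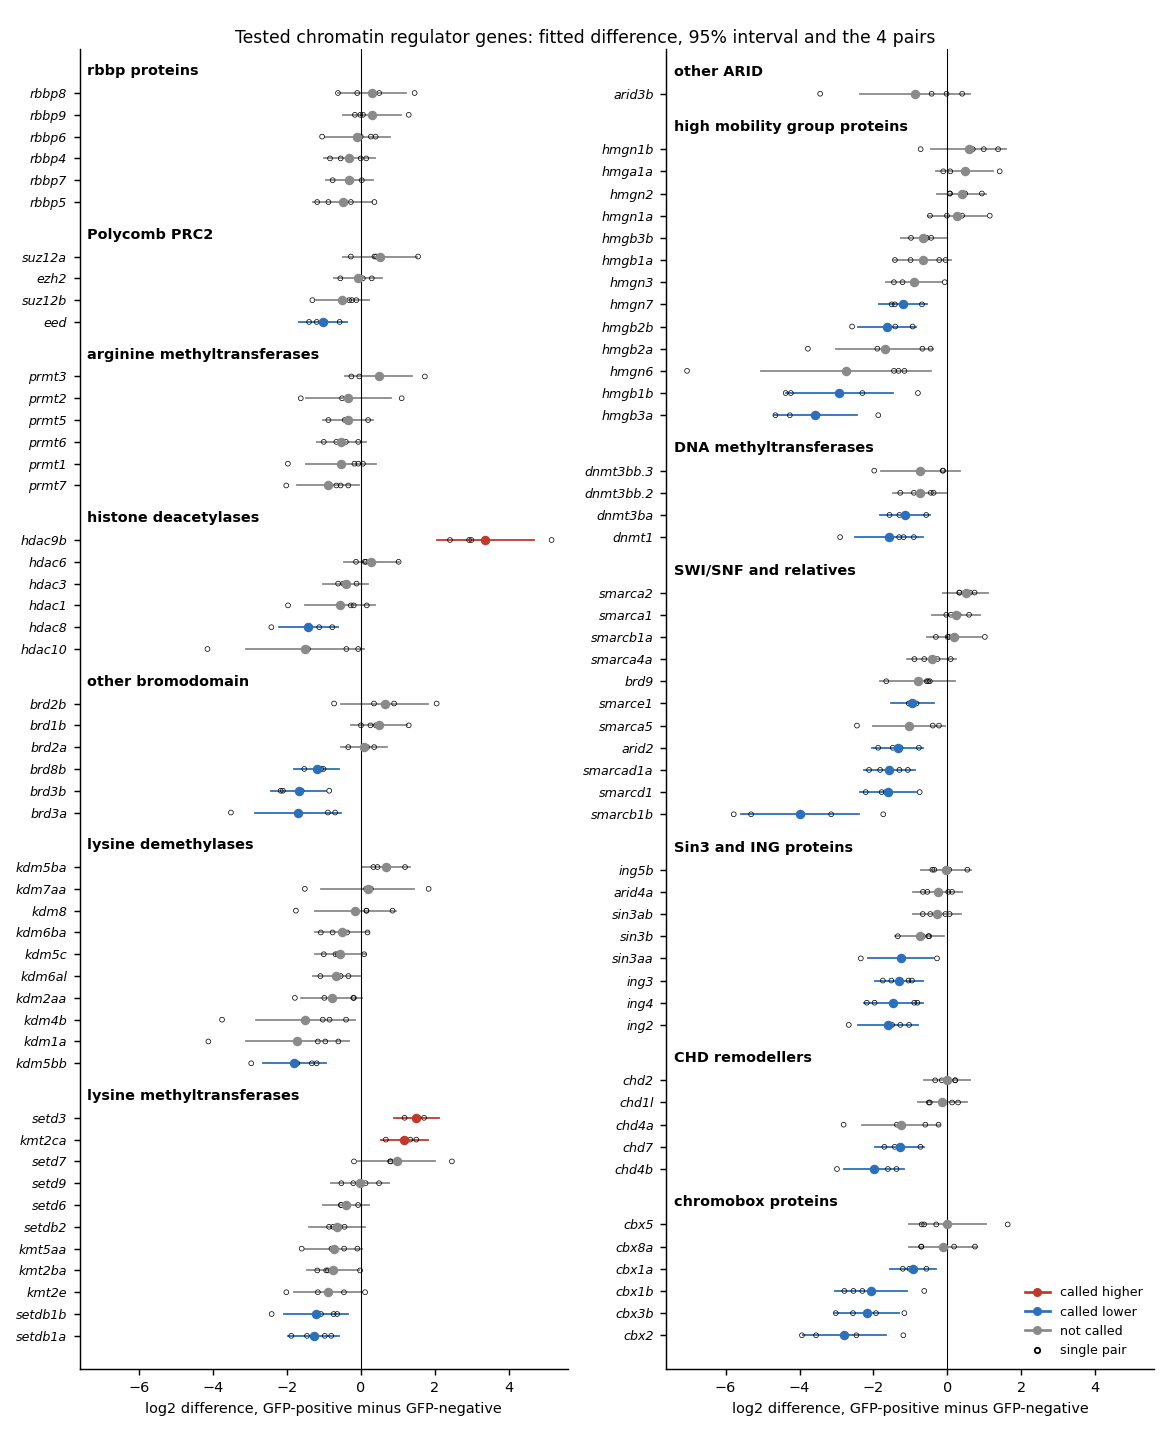
Fitted log2 difference (horizontal axis, GFP-positive minus GFP-negative) of the 97 tested chromatin regulators, grouped by role, as filled points with 95% confidence intervals coloured by call, and as open circles for the 4 single pairs. The 29 genes that fell lie between -3.99 and -0.93, and the 3 that rose lie between 1.18 and 3.38. The values of -3.99 (smarcb1b) and 3.38 (hdac9b) rest on dim arrays of the lower fraction. Their folds are only bounded, at 10.1 or more and 2.49 or more.

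The falls were moderate in size for most genes. Of the 29 genes that fell, 6 had a log2 difference of -2 or beyond, 21 lay between -1 and -2, and 2 were smaller than that. All 29 were lower in 4 of 4 pairs, and in 28 of the 29 the signals of the 2 fractions did not overlap, the exception being brd3a. Of all tested genes of the array that fell, 99.6% were lower in 4 of 4 pairs and 82.7% had fractions that did not overlap. Among all tested members, 53 (54.6%) were lower and 7 (7.22%) were higher in 4 of 4 pairs, where 33.3% of all tested genes were lower and 20.9% higher. The 65 genes that did not pass ranged from -2.74 to 0.97, and for 13 of them the 95% confidence interval lay within -1 and 1, so for the rest a log2 difference of 1 in at least 1 direction was not left out.

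The pairs differed in how far the members were lowered. The median log2 difference of tested members was -0.89 in pair 1, -0.57 in pair 2, -0.41 in pair 3 and -0.70 in pair 4, against medians of -0.15, -0.14, -0.13 and -0.23 over all tested probe sets. Pair 1 held 25 members lower by more than 2 on the log2 scale, pair 2 held 7, pair 3 held none and pair 4 held 9. Pair 3 gave the smallest fall for 20 of the 29 genes that fell, and pair 1 gave the lowest value for 43 of the 97 tested members. The median difference of the proliferation genes was -1.82, -0.74, -0.77 and -0.88 in pairs 1 to 4, and that of the neural genes was -3.06, -5.53, -1.70 and -4.77. Medians of the muscle genes were -6.12, -5.80, -2.66 and -4.97, and those of the erythroid genes -1.82, -0.79, -2.31 and -0.83. Pair 1 was thus lowest for the members, the proliferation genes and the muscle genes. Pair 3 was nearest 0 for the members, the neural genes and the muscle genes, but lowest for the erythroid genes. In pair 2, however, the neural genes were lowest and the proliferation genes nearest 0. The part of any of these lists in the members' differences was not tested.

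**Figure D2:**
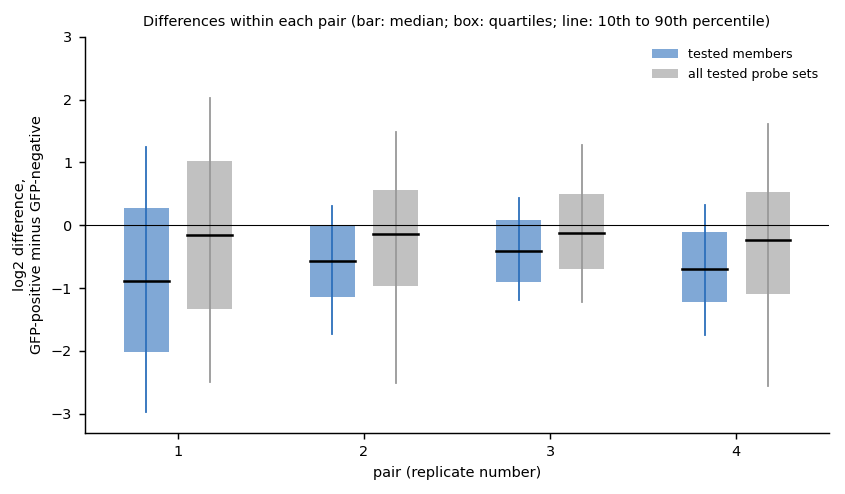
Log2 difference between the fractions in each of the 4 pairs, as the median with the 25th to 75th and the 10th to 90th percentiles, for the 97 tested chromatin regulators and for all 9801 tested probe sets. The members' median lies below that of all probe sets in every pair, at -0.89 against -0.15 in pair 1 and -0.41 against -0.13 in pair 3.

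The counts rest on the number of pairs and on the scaling. Without pair 2 the test called 6 members lower (6.19% of those tested, against 7.40% of all probe sets) and 1 higher, and without pair 4 it called 7 lower (7.22% against 6.72%) and 2 higher. The members' share was therefore close to that of all probe sets without pair 2 and without pair 4, while the members' medians were -0.66 and -0.58. Without pair 1 the test called 34 lower (35.1% against 20.7%), and without pair 3 it called 23 (23.7% against 14.8%). Centring each array on its median moved the median of all probe sets to 0.01 and that of the members to -0.47, and left 18 members lower (18.6% against 14.7%). The calls for cbx2, cbx3b, hmgb3a and smarcb1b held under every alternative run. The calls of chd4b, kdm5bb, setd3 and ing3 were lost under 1 alternative each.

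The 3 genes that rose are a deacetylase and a pair of SET domain genes. The gene hdac9b encodes a class IIa histone deacetylase, a family that shuttles between nucleus and cytoplasm. Its signals were 405, 464, 551 and 729 on GFP-positive arrays 1 to 4 and 11.3, 87, 72.2 and 91.5 on GFP-negative arrays 1 to 4. The probe set was dim on all 4 GFP-negative arrays, so the level there is only bounded, and hdac9b was at least 2.49-fold higher in GFP-positive cells. It passed the filter on dim probe sets only through the GFP-positive arrays, so its place among the genes that rose supports nothing further, and the stricter filter left it out. GFP-negative array 1 was the lowest of its fraction, and every GFP-positive array was above every GFP-negative one.

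The gene setd3, named as a histone lysine methyltransferase and known in mammals for methylating a histidine of actin, gave 5917, 6782, 5536 and 7077 on GFP-positive and 1803, 2300, 2431 and 2427 on GFP-negative arrays. Its signals were nearly level within each fraction, and the fractions were far apart. It rose by 1.50 on the log2 scale with a standard error (SE) of 0.26 and an adjusted p of 0.0076, and its other probe set rose by 1.33. The gene kmt2ca, a member of the MLL family that methylates histone H3 at enhancers, gave 3182, 1676, 1141 and 1740 on GFP-positive and 1122, 725, 712 and 686 on GFP-negative arrays. GFP-positive array 1 was the highest of the 8, and GFP-positive array 3 lay just above GFP-negative array 1. The rise of kmt2ca was 1.18 (SE 0.27, adjusted p = 0.019), and it did not pass without pair 2 or pair 4 (1.08 to 1.35 with 1 pair left out, adjusted p up to 0.095). The call of setd3 was lost without pair 2, at an adjusted p of 0.051.

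Histone deacetylases remove acetyl groups from histones and close chromatin. Of 6 tested members 1 fell, 1 rose and 4 did not pass, with a median of -0.48. Of all tested genes 18.4% fell and 12.8% rose, and 1 gene of 6 in either direction is near those shares. The same shares stand beside the counts of the role groups that follow. The gene that fell was hdac8, a class I enzyme known in human for deacetylating cohesin. Its signals were 828, 2026, 2230 and 2603 on GFP-positive and 4417, 5240, 4853 and 4436 on GFP-negative arrays, a fall of 1.42 (SE 0.34, adjusted p = 0.021) that did not pass after median centring or without pair 2 or pair 3.

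The class I enzyme hdac1, the catalytic subunit of the Sin3 and NuRD corepressors, gave 5313, 34355, 37738 and 31448 on GFP-positive and 20757, 39139, 33684 and 37837 on GFP-negative arrays. The low values are those of pair 1, in both fractions, and the other 3 pairs overlap. The log2 difference was -0.56 (SE 0.40, adjusted p = 0.31), with a 95% confidence interval of -1.50 to 0.38, and without pair 1 it was -0.10. Corepressor enzyme hdac3 had a difference of -0.40 (-1.01 to 0.20), with GFP-positive signals of 2260, 2296, 2349 and 2216 below all GFP-negative signals of 3140, 3506, 3131 and 2394. The cytoplasmic tubulin deacetylase hdac6 (0.29) and the polyamine deacetylase hdac10 (-1.51, with -0.63 without pair 1) did not pass either.

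Sin3 proteins are scaffolds that bring deacetylases to genes, and ING proteins read methylated histone H3 for acetylase and deacetylase complexes. Of 8 tested members 4 fell, none rose, and all 8 had a difference below 0, with a median of -1.01. The ING gene ing2, a subunit of Sin3 complexes, gave 684, 1109, 1485 and 991 on GFP-positive and 4341, 3129, 3046 and 2399 on GFP-negative arrays. Every GFP-positive signal was lower than every GFP-negative one, and the fall was 1.62 (SE 0.34, adjusted p = 0.014).

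The acetylase-linked ing3 fell by 1.32 and ing4 by 1.46. The scaffold gene sin3aa fell by 1.26 (SE 0.37, adjusted p = 0.041), with 1502, 2158, 4160 and 2547 on GFP-positive and 7616, 4999, 5054 and 5849 on GFP-negative arrays. GFP-positive array 3 came nearest to the GFP-negative arrays without overlap. Its paralogue sin3ab had a difference of -0.28 (-0.92 to 0.36), and the scaffold sin3b had -0.75 with an adjusted p of 0.081. Without pair 1 or without the block sin3b passed. Other members without a call were ing5b at -0.04 and arid4a, a Sin3 partner, at -0.26. None of the 4 calls held without pair 2, those of ing2, ing4 and sin3aa were lost without pair 4, and that of sin3aa was also lost under quantile normalisation and median centring (adjusted p up to 0.13).

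SWI/SNF complexes are ATP-driven remodellers that open promoters and enhancers. Of 11 tested genes of these complexes and their relatives, 5 fell and none rose, with a median of -0.95. The gene smarcb1b, a copy of the gene for the core subunit SNF5, had the largest fitted fall of all tested members. Its signals were 80.7, 94.1, 1134 and 370 on GFP-positive and 4434, 3732, 3776 and 3269 on GFP-negative arrays. GFP-positive arrays 1 and 2 were dim and array 3 was the highest of that fraction, while the GFP-negative arrays were close to each other. Measured above the dim limit on 2 of 4 GFP-positive arrays, smarcb1b was at least 10.1-fold lower with a fitted log2 difference of -3.99 (SE 0.67, adjusted p = 0.0074).

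**Figure D3:**
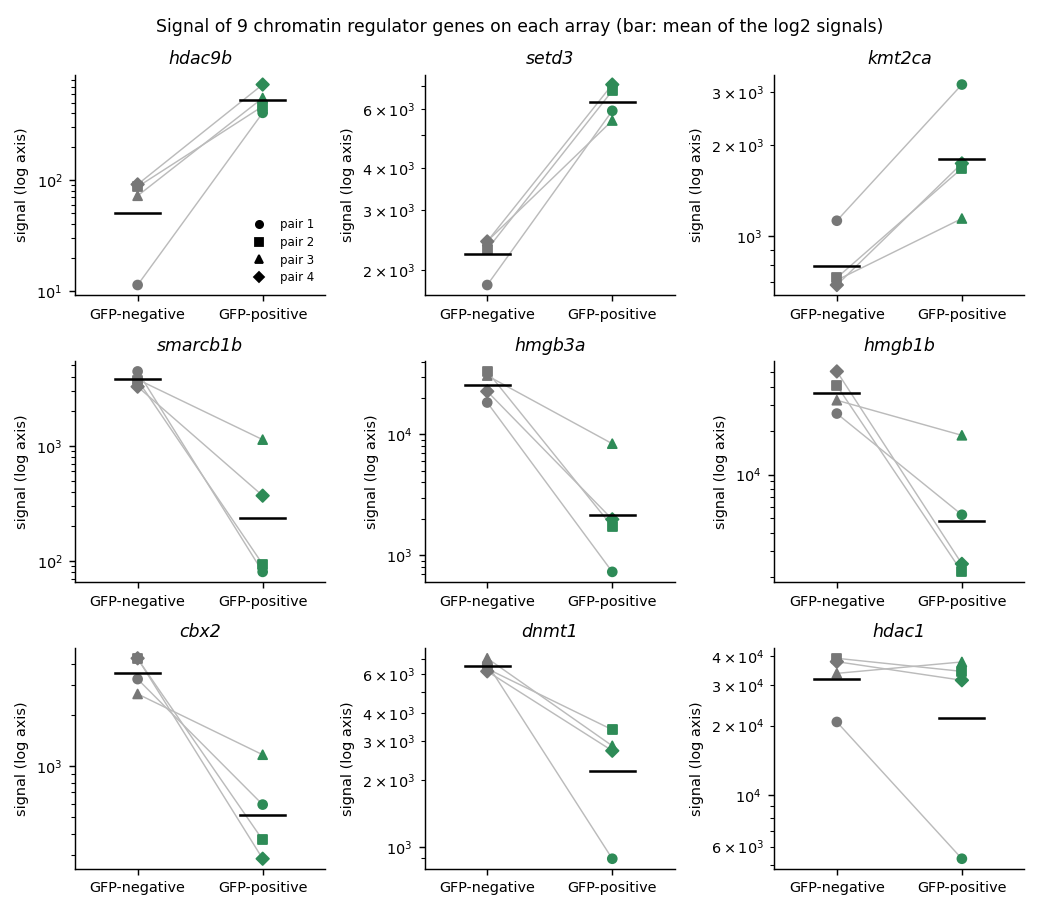
Signals on each array for 9 chromatin regulators, on log axes in MAS5 signal units with a scale of its own per gene, with the arrays of a pair joined by a line and sharing a symbol, and black bars at the means of the log2 signals (n = 4). The fractions do not overlap for smarcb1b, hmgb3a, cbx2 and hdac9b, and the signals of hdac1 overlap.

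The subunit gene smarcd1 (known as BAF60a) gave 3786, 5654, 8426 and 4713 on GFP-positive and 17508, 17873, 14174 and 16168 on GFP-negative arrays and fell by 1.60 (SE 0.32, adjusted p = 0.012). The separate ATPase smarcad1a, a remodeller linked to heterochromatin upkeep in mammals, gave 2387, 1394, 2236 and 1198 against 5876, 4918, 4694 and 5203 and fell by 1.58 (SE 0.29, adjusted p = 0.0094). In both genes all GFP-positive arrays lay below all GFP-negative arrays, with array 3 of smarcd1 the nearest. The targeting subunit arid2 fell by 1.35 and the DNA-binding subunit smarce1 by 0.95.

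The catalytic subunits did not pass the test. The ATPase smarca4a (Brg1) had a log2 difference of -0.43 (-1.09 to 0.25) and -1.20 on its other probe set, neither of which passed, and its alternative smarca2 (Brahma) had 0.50 (-0.11 to 1.11), higher in 4 of 4 pairs, with 2893, 2551, 1474 and 2231 on GFP-positive and 1737, 2039, 1175 and 1461 on GFP-negative arrays. The fractions of smarca2 overlapped. The ISWI ATPase smarca5 had -1.03 (adjusted p = 0.099) with -0.56 without pair 1, and its other probe set had 0.33. The calls of arid2, smarcad1a, smarcd1 and smarce1 were lost without pair 2 or pair 4, and that of smarce1 also without pair 3 (-0.99 to -0.92 with 1 pair left out, adjusted p up to 0.15) and after median centring. The dimmer probe set of arid2 did not pass.

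CHD proteins are remodellers with a chromodomain, and chd4 is the ATPase of the NuRD corepressor. Of 5 tested members 2 fell and all 5 had a difference below 0, with a median of -1.25. The gene chd4b gave 623, 588, 1136 and 871 on GFP-positive and 4944, 2277, 3468 and 2262 on GFP-negative arrays. The fractions were well apart in every pair, and chd4b fell by 1.98 (SE 0.34, adjusted p = 0.0077), although its dimmer probe set, at -0.84 with an adjusted p of 0.073, did not pass. The paralogue chd4a had a difference of -1.25 (SE 0.45, adjusted p = 0.074) and of -0.74 without pair 1, and its signals of 1303, 2468, 1488 and 2256 lay below those of the GFP-negative arrays, 9118, 3732, 3842 and 2663. The gene chd7, mutated in human CHARGE syndrome and needed in neural crest, gave 3526, 3089, 4362 and 3579 on GFP-positive and 11499, 8292, 7232 and 8910 on GFP-negative arrays. It fell by 1.29, and both its tested probe sets passed. Its call was lost without pair 2 or pair 4 (adjusted p up to 0.091). The genes chd1l and chd2 had differences of -0.14 and -0.02.

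The rbbp genes share a name rather than a function. None of 6 tested members passed the test, and the median was -0.20. The histone chaperones rbbp4 and rbbp7, shared by NuRD, the Polycomb complex PRC2 and a replication-linked assembly factor, were nearly level. Gene rbbp4 gave 12906, 13469, 9307 and 9415 on GFP-positive and 11630, 13460, 13538 and 16732 on GFP-negative arrays, a difference of -0.31 (-0.99 to 0.38), and rbbp7 gave a difference of -0.31 (-0.95 to 0.32). These intervals leave out a change of 1 on the log2 scale. The MLL complex subunit rbbp5 had -0.49, the DNA repair gene rbbp8 0.31, the hydrolase rbbp9 0.30 and the ubiquitin ligase rbbp6 -0.09.

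Polycomb complexes keep developmental genes silent. PRC2 writes a methyl mark on histone H3, and PRC1 reads it through a chromobox protein. Of 4 tested PRC2 genes only eed fell, and the median was -0.28. As 18.4% of all tested genes fell, 1 gene of 4 does not set PRC2 apart. The subunit eed, which binds the mark that PRC2 makes, gave 1079, 1893, 2220 and 1986 on GFP-positive and 2462, 3684, 5841 and 2946 on GFP-negative arrays, a fall of 1.03 (SE 0.27, adjusted p = 0.029) that did not pass without the block, under quantile normalisation, after median centring or with pair 2, 3 or 4 left out (adjusted p up to 0.13).

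The catalytic subunit ezh2 gave 5757, 10498, 10702 and 8654 on GFP-positive and 8432, 10085, 8701 and 9132 on GFP-negative arrays. The fractions overlapped, and the log2 difference of -0.07 (-0.71 to 0.58) turned to 0.12 after median centring and to 0.09 without pair 1. The paralogues suz12a and suz12b, which hold the complex together, had differences of 0.52 (0.17 to 0.78 with 1 pair left out) and -0.49, and neither passed.

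Chromobox proteins are the readers of repressive methyl marks. Of 6 tested members 4 fell and none rose, with a median of -1.50. The Polycomb reader cbx2 gave 593, 367, 1168 and 284 on GFP-positive and 3267, 4305, 2669 and 4336 on GFP-negative arrays. The GFP-positive signals stayed below the GFP-negative ones in every combination, with array 3 the highest of its fraction and GFP-negative array 3 the lowest. It fell by 2.79 (SE 0.47, adjusted p = 0.0076). The other tested Polycomb reader, cbx8a, had a difference of -0.12 with an interval of -1.05 to 0.80.

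The HP1 proteins bind the heterochromatin mark, and 3 of 4 fell. Gene cbx3b gave 597, 383, 547 and 289 on GFP-positive and 2279, 2250, 1225 and 2345 on GFP-negative arrays and fell by 2.17 (SE 0.36, adjusted p = 0.0073). GFP-negative array 3 was low against the other 3, and still above all GFP-positive arrays. Gene cbx1b gave 136, 317, 707 and 281 on GFP-positive and 793, 1559, 1091 and 1935 on GFP-negative arrays, a fall of 2.06 (SE 0.41, adjusted p = 0.012), with its highest GFP-positive value again on array 3. Its paralogue cbx1a gave 2861, 4433, 2922 and 3425 against 6602, 6567, 5965 and 6523, a fall of 0.93 (SE 0.26, adjusted p = 0.035). The call of cbx1b was lost without pair 2 or pair 4 (adjusted p up to 0.059), and that of cbx1a also without pair 3 and after median centring (adjusted p up to 0.15).

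The HP1 gene cbx5 behaved unlike the others on its brighter probe set. Its signals were 51135, 15142, 15276 and 14242 on GFP-positive and 16506, 23438, 18840 and 23060 on GFP-negative arrays. GFP-positive array 1 was far above the rest, and the other 3 GFP-positive arrays were below all GFP-negative ones. The log2 difference was 0.00 (-1.03 to 1.04), turned to -0.54 without pair 1 and to -0.27 under quantile normalisation, and the other probe set fell by 1.11 (adjusted p = 0.028). This brighter probe set carries the same cluster name as those of hmgb2a and the proliferation gene rrm1, so they may share transcripts. On GFP-positive array 1, where cbx5 was highest, hmgb2a (273) and rrm1 (465) had their lowest signals. Whether transcripts are shared was not tested.

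DNA methyltransferases write methyl groups on cytosine. Of 4 tested members 2 fell, all 4 were below 0 and the median was -0.95. The maintenance enzyme dnmt1, which copies methylation after replication, gave 890, 3375, 2858 and 2716 on GFP-positive and 6658, 6338, 7060 and 6170 on GFP-negative arrays. GFP-positive array 1 was far below the other 3, which were close together at less than the lowest GFP-negative signal. The gene fell by 1.58 (SE 0.39, adjusted p = 0.023), and by 1.13 without pair 1. The summed signal of the proliferation genes was 61114 on GFP-positive array 1, while arrays 2 to 4 of that fraction had 117698 to 154400. That of the myeloid genes was also lowest on GFP-positive array 1, at 256989 against 372992 to 449931. The part of either list in the low value of dnmt1 was not tested.

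The de novo enzyme dnmt3ba gave 3002, 4445, 6527 and 4626 on GFP-positive and 8887, 9825, 9712 and 11386 on GFP-negative arrays and fell by 1.15 (SE 0.28, adjusted p = 0.023). The fractions did not overlap. The related genes dnmt3bb.2 (-0.75) and dnmt3bb.3 (-0.73) did not pass. Neither call held after median centring or without pair 2 or pair 4, and that of dnmt1 was also lost without pair 3 (adjusted p up to 0.066 for dnmt1 and 0.11 for dnmt3ba).

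Lysine methyltransferases write on histones, with effects that depend on the residue. Of 11 tested members 2 fell and 2 rose, with a median of -0.65. The share that fell was near the 18.4% of all tested genes that fell, and 12.8% of all tested genes rose. The 2 that fell are both copies of setdb1, whose protein writes the heterochromatin mark. Gene setdb1a gave 670, 631, 1002 and 980 on GFP-positive and 2463, 1727, 1740 and 1921 on GFP-negative arrays, a fall of 1.27 (SE 0.29, adjusted p = 0.019), but its other tested probe set had 0.44 and did not pass. Gene setdb1b gave 851, 1198, 1072 and 1205 against 4517, 1862, 2257 and 2000, a fall of 1.21 (SE 0.37, adjusted p = 0.044). In setdb1b GFP-negative array 1 was the highest by far. Both calls were lost after median centring and without pair 2 or pair 4, and that of setdb1b also without pair 3, under quantile normalisation and without the variance trend.

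Members without a call were kmt2ba (-0.75), an MLL relative, kmt2e (-0.88), which carries a SET domain of unclear activity, and kmt5aa (-0.73), the enzyme of a mark that peaks in mitosis. The gene setd7, a methyltransferase of histones and of other proteins, had 0.97 (-0.06 to 2.01), with 5770, 826, 1008 and 1180 on GFP-positive and 1044, 936, 573 and 680 on GFP-negative arrays. The high value was that of GFP-positive array 1, and without pair 1 the difference was 0.48.

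Arginine methyltransferases gave no call among 6 tested members, whose median was -0.44. The main enzyme of asymmetric arginine methylation, prmt1, gave 4347, 27239, 39848 and 25320 on GFP-positive and 17014, 30616, 38206 and 26524 on GFP-negative arrays. GFP-positive array 1 was much lower than the other 3, which overlapped with the GFP-negative arrays, and the difference of -0.54 (interval -1.48 to 0.41) became -0.06 without pair 1. The symmetric enzyme prmt5 had -0.35 (-1.03 to 0.32), and prmt2, prmt3, prmt6 and prmt7 had -0.34, 0.48, -0.53 and -0.89, the last with -0.51 without pair 1.

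Lysine demethylases erase methyl groups. Of 10 tested members kdm5bb alone fell, a lower share than the 18.4% of all tested genes, and the median was -0.61. This gene is a copy of kdm5b, whose protein removes an activating mark from promoters. It gave 844, 5573, 3776 and 3104 on GFP-positive and 6578, 13921, 8622 and 10206 on GFP-negative arrays. Pair 1 was lowest in both fractions, which still did not overlap, and the fall was 1.80 (SE 0.36, adjusted p = 0.012), with -1.41 without pair 1 and a lost call without pair 4 (adjusted p = 0.054). The paralogue kdm5ba gave 10097, 4584, 3872 and 4125 on GFP-positive and 4395, 3612, 2322 and 3009 on GFP-negative arrays, a difference of 0.68 (SE 0.28, adjusted p = 0.1). In each of the 4 pairs the GFP-positive signal was the higher one, yet the fractions overlapped.

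The demethylase kdm1a (LSD1), which acts on the same histone residue by a flavin mechanism and is needed in vertebrate blood formation, gave 490, 3598, 5305 and 4301 on GFP-positive and 8531, 8039, 10298 and 6539 on GFP-negative arrays. All GFP-positive signals were below all GFP-negative signals, and GFP-positive array 1 was the lowest. The difference of -1.71 (SE 0.59, adjusted p = 0.065) did not pass, but without pair 1 it was -0.91 and passed, at an adjusted p of 0.024. The other members had differences of -1.50 (kdm4b, with -0.76 without pair 1), -0.79 (kdm2aa), -0.66 (kdm6al), -0.55 (kdm5c), -0.51 (kdm6ba), -0.15 (kdm8) and 0.19 (kdm7aa), and none passed. Without pair 1, however, kdm5c passed.

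High mobility group proteins are the non-enzymatic architects of chromatin. Of 13 tested members 4 fell, none rose and the median was -0.90. The HMGB proteins bend DNA, and 3 of 6 tested fell, with all 6 below 0 and a median of -1.67. The gene hmgb3a, whose mammalian counterpart HMGB3 is known from blood progenitors, gave 729, 1728, 8374 and 1983 on GFP-positive and 18341, 33169, 30628 and 22676 on GFP-negative arrays. GFP-positive array 3 lay well above arrays 1, 2 and 4, and every one was lower than every GFP-negative array. It fell by 3.58 (SE 0.47, adjusted p = 0.004), with a range of -4.14 to -3.22 with 1 pair left out.

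Gene hmgb1b gave 5302, 2156, 18540 and 2446 on GFP-positive and 26130, 40603, 32220 and 50758 on GFP-negative arrays and fell by 2.93 (SE 0.61, adjusted p = 0.014). Again GFP-positive array 3 was the highest, several times above arrays 2 and 4. The summed signal of the neural genes was 35756 on GFP-positive array 3, of which sox3 gave 18747. It was 3211 to 13525 on the other GFP-positive arrays and 90884 to 120333 on GFP-negative arrays. The muscle genes summed to 8729 on GFP-positive array 3, 2277 to 3018 on the other GFP-positive arrays and 55648 to 149237 on GFP-negative arrays. The part of either list in the values of hmgb3a, hmgb1b, cbx2 and smarcb1b on GFP-positive array 3 was not tested. Without pair 3 the first 3 of these genes fell by 4.14, 3.64 and 3.32, and smarcb1b also passed the test.

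Gene hmgb2b, a copy of the gene for the dividing-cell protein HMGB2, gave 4147, 10349, 15047 and 9432 on GFP-positive and 24759, 27513, 28868 and 28451 on GFP-negative arrays. It fell by 1.63 (SE 0.33, adjusted p = 0.013), and its other tested probe set fell by 3.25. GFP-positive array 1 was the lowest, and the fractions did not overlap. The calls of hmgb1b and hmgb2b were lost without pair 2 or pair 4 (adjusted p up to 0.06 and 0.059). Paralogues hmgb1a (-0.67, with -0.42 without pair 4), hmgb2a (-1.70, with -1.01 without pair 1) and hmgb3b (-0.65) did not pass. However, hmgb2a passed with an offset of 50 before the log, and hmgb3b passed without pair 1.

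HMGN proteins bind nucleosomes and loosen them. Of 6 tested members hmgn7 fell, near the 18.4% of all tested genes that fell, and the median was -0.32. It gave 2210, 4618, 5330 and 4584 on GFP-positive and 6283, 12369, 8585 and 10447 on GFP-negative arrays, a fall of 1.20 (SE 0.27, adjusted p = 0.018) that did not pass after median centring or without pair 2 or pair 4. Gene hmgn6 had a larger difference of -2.74 with an adjusted p of 0.072. Its signals were 56.9, 4447, 3259 and 3650 on GFP-positive and 7502, 9954, 8875 and 9122 on GFP-negative arrays, so GFP-positive array 1 was far below the other 3, and without pair 1 the difference was -1.31 and passed (adjusted p = 0.0095).

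The AT-hook gene hmga1a, whose protein opens chromatin in undifferentiated cells, gave 78547, 56754, 97472 and 72634 on GFP-positive and 29456, 61317, 69847 and 68827 on GFP-negative arrays, which overlapped, with GFP-negative array 1 the lowest. The difference of 0.47 (-0.31 to 1.24) turned to -0.06 under quantile normalisation, and its 3 other tested probe sets had differences of -1.66 (adjusted p = 0.044), -0.22 and 1.07, of which only the first passed. Gene hmgn1a had a difference of 0.27 (-0.52 to 1.05) that turned to -0.13 under quantile normalisation and to -0.03 without pair 1. Probe sets of hmgb3a, hmgn1a and hmgn7 carry the same cluster name, and may share transcripts, though in pair 1 their differences were -4.65, 1.15 and -1.51. Likewise, hmga1a carries the cluster name of the neural marker sox3 and of hcfc1a, another chromatin gene. Sharing of transcripts was not tested.

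Bromodomain proteins read acetylated histones. Of 6 tested members outside the other families 3 fell and none rose, with a median of -0.55. The BET gene brd3b gave 1780, 1442, 3439 and 1874 on GFP-positive and 5382, 6196, 6204 and 8397 on GFP-negative arrays and fell by 1.68 (SE 0.32, adjusted p = 0.0099). Of its 2 other tested probe sets, 1 fell by 3.15 and 1, at -1.03, did not pass. Its paralogue brd3a gave 28.4, 1520, 2193 and 1172 against 323, 2812, 3543 and 3796, a fall of 1.70 (SE 0.49, adjusted p = 0.039). Pair 1 was low in both fractions of brd3a, which made the groups overlap, and the call was lost without the block, under quantile normalisation, after median centring and without pair 2 or pair 4 (adjusted p up to 0.37), while without pair 1 the fall was 1.09.

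The acetylase-complex gene brd8b fell by 1.19 (SE 0.26, adjusted p = 0.015), and like brd3b it did not pass without pair 2 or pair 4. The BET gene brd2a gave 4652, 5194, 7063 and 5435 on GFP-positive and 4114, 4692, 5486 and 6862 on GFP-negative arrays, with a difference of 0.09 (-0.54 to 0.72) that became -0.27 on another tested probe set and -0.004 without pair 3. The only other ARID gene, arid3b, had -0.87 (-2.35 to 0.61), and -0.02 without pair 1. In pair 1 its GFP-positive signal, 932, was the lowest of its fraction and its GFP-negative signal, 10127, the highest.

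**Figure D4:**
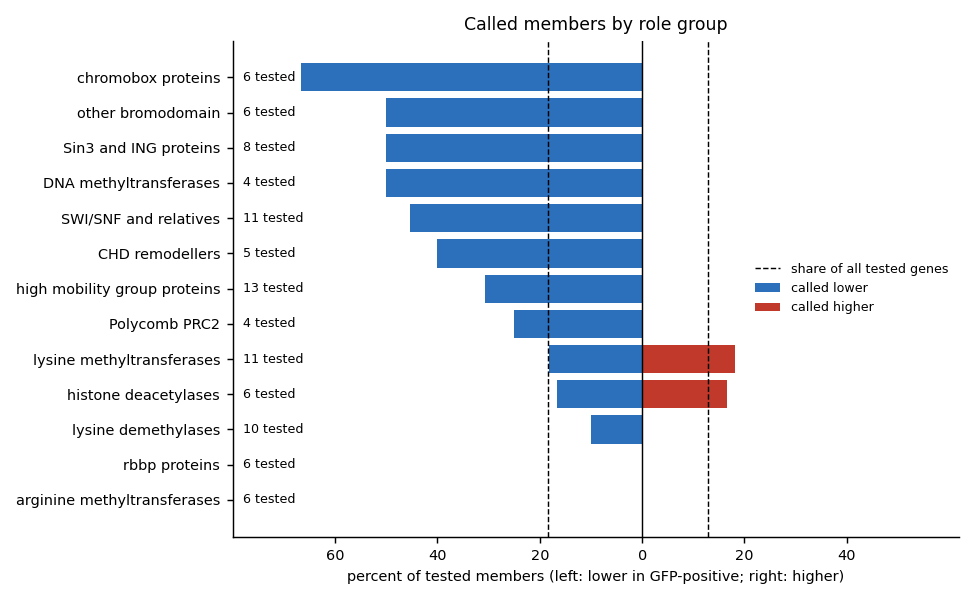
Percent of tested members called lower (bars to the left) and higher (bars to the right) in the GFP-positive fraction by role group, with dashed lines at the shares of all tested genes, 18.4% lower and 12.8% higher. The bars run from 4 of 6 chromobox genes lower to none of 6 rbbp and 6 arginine methyltransferase genes, and genes called higher appear for the lysine methyltransferases and the histone deacetylases.

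Zebrafish carry duplicated copies of many genes, and the copies did not always differ between the fractions by the same amount. The log2 ratio of the a copy to the b copy was tested within each array for the 13 pairs of members with both copies tested, in a fit over 439 duplicated pairs of the whole array, a test added after the data were seen. Over the whole array the ratio changed in 25.5% of pairs, and among the 13 it changed in 4. That is close to the share of the array, so unequal change of copies is not particular to the members. A changed ratio shows unequal change, and levels of 2 probe sets cannot be set against each other.

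For smarcb1a over smarcb1b the log2 ratio was higher in GFP-positive cells by 4.18 (SE 0.80, adjusted p = 0.0091), with smarcb1a itself at 4623, 2841, 3924 and 2917 on GFP-positive and 2291, 2760, 3905 and 3621 on GFP-negative arrays, which overlapped, and a difference of 0.19 that turned to -0.09 without pair 1. As smarcb1b was dim on 2 of 4 GFP-positive arrays, the size of that ratio rests on signals near background. The ratio of kdm5ba to kdm5bb was higher by 2.48 (SE 0.50, adjusted p = 0.011). For hmgb1a over hmgb1b it was higher by 2.26 (SE 0.50, adjusted p = 0.014), and this call was lost without pair 2 (adjusted p = 0.086) or pair 4 (adjusted p = 0.053). The ratio of hmgb3a to hmgb3b moved the other way, with a log2 difference of -2.93 (SE 0.51, adjusted p = 0.0064). Each of the 4 ratios differed in the same direction in 4 of 4 pairs. The copy called lower was the b copy in 3 of them and the a copy in hmgb3. Of the copies without a call, hmgb1a (-0.67) and hmgb3b (-0.65) were also lower in 4 of 4 pairs, while kdm5ba (0.68) and smarcb1a (0.19) were above 0.

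The other 9 pairs did not pass. For brd3a over brd3b, setdb1a over setdb1b and hmgb2a over hmgb2b the log2 ratio differed by -0.02 (-1.27 to 1.24), -0.06 (-0.98 to 0.86) and -0.07 (-1.24 to 1.101). Those intervals do not show that the copies changed alike. For cbx1a over cbx1b the ratio differed by 1.13 (-0.01 to 2.27), for chd4a over chd4b by 0.73 (-0.20 to 1.66), for sin3aa over sin3ab by -0.98 (-2.01 to 0.06) and for suz12a over suz12b by 1.01 (-0.03 to 2.06).

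**Figure D5:**
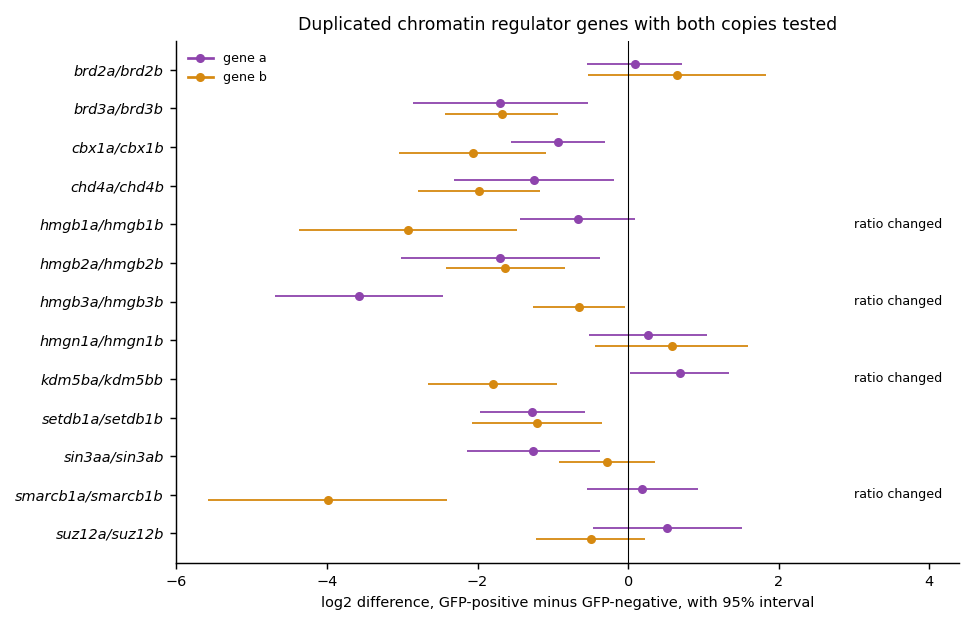
Log2 differences between the fractions for the a copy and the b copy of the 13 duplicated pairs with both copies tested, with 95% confidence intervals, and the words "ratio changed" beside the 4 pairs whose ratio passed the test. In smarcb1 the b copy lies at -3.99 and the a copy at 0.19, and in hmgb3 the a copy lies at -3.58 and the b copy at -0.65.

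Several probe sets for 1 gene gave a check within the array. Of 19 members with more than 1 tested probe set, 7 had probe sets that pointed in different directions, and of these only setdb1a was a called member. In brd2a, chd2, rbbp6 and smarca5 no probe set passed, and in chd2 the differences were only -0.015 and 0.004. Among the 7 called members with several tested probe sets, all tested sets were called for chd7, hmgb2b and setd3. The 12 members that were too dim for the test were brd8a, cbx6b, chd1, hdac11, hdac4, kdm4ab, kdm4c, kmt2a, prmt8b, rbbp8l, setd4 and smarcc1a. Their differences cannot be read as present or absent. Of the 97 tested members, 79 were above the dim limit on all 8 arrays, and so were 28 of the 32 that were called.

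Other chromatin genes, whose symbols the naming rule does not cover, were taken from lists of complex partners. Of 57 tested, 24 fell and 4 rose, with a median log2 difference of -0.93. The share that rose was 7.02%, below the 12.8% of all tested genes that rose. The share that fell was 42.1%, where 18.4% of all tested probe sets fell. Without pair 2 it was 6 genes (10.5%, against 7.40% of all probe sets), without pair 3 it was 14 (24.6% against 14.8%), without pair 4 it was 7 (12.3% against 6.72%), and after median centring it was 13 (22.8% against 14.7%). Among the partners of PRC1, the complex in which cbx2 works, 7 of 8 tested genes fell and the median was -1.45, with 1, 5 and 2 of 8 without pair 2, 3 or 4. The ring-domain partner bmi1b gave 1275, 848, 1522 and 895 on GFP-positive and 4257, 4078, 3014 and 3892 on GFP-negative arrays and fell by 1.78 (adjusted p = 0.008). The MLL partner men1 (menin) fell by 1.79 (adjusted p = 0.0045), the lysine methyltransferase nsd1a by 3.81 (adjusted p = 0.0054) and the NuRD subunit mbd3b by 2.92 (adjusted p = 0.0059). Of 11 tested histone chaperones and variants 4 fell, among them nasp by 1.67, ssrp1a by 1.43 and hira by 1.47. The 4 genes that rose were the SWI/SNF partners dpf2, by 1.63, and bcl7ba, by 1.46, the NuRD gene mbd2, by 1.04, and the deacetylase sirt2, by 2.34. Without pair 2 the calls of mbd2 (adjusted p = 0.15), bcl7ba (0.091) and hira (0.065) were lost, and without pair 4 those of mbd2 (0.15), hira and ssrp1a (0.054 for both hira and ssrp1a). The call of mbd2 was also lost without pair 3 (0.085) and with no filter on dim probe sets (0.051). The other 7 named genes passed under every alternative that tested them.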

How the data were processed

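The deposited values are linear intensity readings, 1 for each probe set on each array, which the authors made with MAS5 per the submitters' processing notes (version not given in the sources used here). Their trimmed mean (2 percent left out at each end) was 1500.26 to 1500.47 on all 8 arrays, so the arrays share a scaling and were used as deposited. The number of arrays, 4 per fraction, limits the precision.

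Groups and replicate numbers came from the sample titles. The 115 control probe sets were left out, and names came from the platform annotation. Signals were taken to log2 without an offset. Probe sets above the 40th percentile of their array on at least 4 of 8 arrays (9801) were fitted with limma 3.58.1 in R 4.3.3 (lmFit, eBayes with a trend, two-sided), with Benjamini-Hochberg adjustment over all of them and a threshold of 0.05. The pair was a block in the fit, since the series' design text mentions pairing of the fractions. Deviations from the group means correlated within pairs 1 to 4 at 0.40, 0.26, 0.18 and -0.12. The pairing of pair 4 thus rests on that text and on the numbers shared in the sample titles, without backing from the signals. Intervals are 95% confidence limits of the fit. A bound ("at least N-fold") sets the dim fraction on each array at the higher of the 40th percentile and the measured signal, for genes above it on at most 2 of 4 arrays of the lower fraction.

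The members and the gene lists were chosen with earlier results of these data known. Genes given with values are the called members with the largest rises and falls (up to 12 each), up to 3 tested members with the smallest p in each role group, and genes named by role. The genes arid2, hmgn7, setdb1b, smarce1, hmgn6, hmgn1a, setd7 and smarca2 fell outside this rule and were chosen after their values were seen, as were the single values listed without a test for other members. Of the other chromatin genes, the 8 with the smallest p and all that rose are named. Alternatives were the block, quantile normalisation, median centring, no and a stricter filter (60th percentile), no variance trend, an offset of 50, the dimmest probe set, symbols updated by gene identifier and each pair left out. The test was tested on simulated data. Promoter sequences and genome coordinates were not used here.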

Additional observations from a re-analysis of the deposited data

Results flagged for a closer look

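Single arrays stood apart for some genes. In groups of 4 arrays, 134 groups of 67 genes were checked, and in 14 the gap between the outermost array and the next, divided by the range of log2 signals, was above Dixon's 95% critical value. Chance flags about 1 in 20 such groups, and genes on 1 array are not independent. GFP-positive replicate 1 held 7 of the 14, GFP-negative replicate 1 held 5 and GFP-negative replicate 3 held 2.

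On GFP-positive replicate 1 the signal was low for arid3b (932, with 4670 to 6066 on the other GFP-positive arrays), brd3a (28.4 against 1172 to 2193), dnmt1 (890 against 2716 to 3375), hdac1 (5313 against 31448 to 37738), hmgn6 (56.9 against 3259 to 4447) and kdm1a (490 against 3598 to 5305). On that array it was high for cbx5 (51135 against 14242 to 15276). The summed signal of the proliferation genes was also lowest on that array, at 61114, and so was that of the myeloid genes, at 256989. Sums of the stem and progenitor, endothelial and thrombocyte genes were highest there. Within the proliferation list, cdk2, mcm4, cdc6 and top2a had their highest GFP-positive signal on that array. The part of any of these lists in these values was not tested. On GFP-negative replicate 1 the signal was low for brd3a (323 against 2812 to 3796), hdac9b (11.3 against 72.2 to 91.5, dim on all), hmga1a (29456 against 61317 to 69847) and hmgn1a (23544 against 47310 to 51882), and high for kmt2ca (1122 against 686 to 725). On GFP-negative replicate 3 it was low for cbx1a (5965 against 6523 to 6602) and cbx3b (1225 against 2250 to 2345).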

How the results depend on the processing

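With no replicate block the test called 29 members lower (29.9% of those tested, against 17.2% of all probe sets) and 3 higher. Of the 29 that fell in the paired fit 27 were kept (brd3a and eed were lost, chd4a and sin3b were new). The block changed no call among the other members. The number of members that fell was 25 to 31 under the other scalings, filters and models, except after median centring, where it was 18 and the median of all probe sets shifted from -0.18 to 0.01. Apart from that setting, 25.8% to 35.8% of tested members fell, where 11.8% to 20.4% of all probe sets fell. Members tested numbered 81 under the stricter filter and 109 with no filter. With 1 pair left out, members called lower ranged from 6 to 34 and higher from 1 to 3, and probe sets of the whole table called lower ranged from 659 to 2027 and higher from 646 to 1466. In those fits fewer samples carry the test. Leaving out only the array of GFP-positive replicate 3, chosen after the data were seen and fitted with no replicate block, gave 28 lower (28.9% against 18.0%). The 4 changed ratios of duplicated genes became 3 without pair 2 or pair 4.

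Differences that did not pass the test changed sign for brd2a (-0.004 to 0.229 with 1 pair left out, lowest without pair 3, -0.031 without GFP-positive replicate 3, -0.265 on its dimmest probe set), cbx5 (-0.266 under quantile normalisation, -0.543 to 0.233 with 1 pair left out, lowest without pair 1, and -1.106 on the other probe set), ezh2 (0.122 after median centring, -0.190 to 0.093 with 1 pair left out, highest without pair 1), hmga1a (-0.060 under quantile normalisation), hmgn1a (-0.127 under quantile normalisation, -0.028 to 0.511 with 1 pair left out, lowest without pair 1), smarca5 (0.330 on its other probe set) and smarcb1a (-0.088 to 0.354 with 1 pair left out, lowest without pair 1). The called setdb1a had 0.444 on its dimmer probe set. The cause of these changes was not tested. Without a filter on dim probe sets cbx6b was also called higher. MAS5 signals near background are noisy, so differences of dim members are the least certain.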
